A study of Saccharomyces cerevisiae with 12 samples.

Results

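The genes described here encode the yeast enzymes that turn pyruvate into ethanol and acetate: the pyruvate decarboxylases PDC1, PDC5 and PDC6, the alcohol dehydrogenases ADH1 to ADH5 and the aldehyde dehydrogenases ALD4 and ALD6. They were taken by name, and all 10 were rows of the table of 6053 genes. Potassium starvation raised the RNA level of PDC5 5.21-fold in a bmh1∆ strain and 7.93-fold in a bmh2∆ strain. PDC5 was the only tested gene among them that passed in any of the 5 comparisons made here.

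Fermenting Saccharomyces cerevisiae cells decarboxylate pyruvate to acetaldehyde with pyruvate decarboxylase, an enzyme that needs thiamine diphosphate. Alcohol dehydrogenase then reduces acetaldehyde to ethanol with NADH, or works in the other direction when ethanol is consumed, and aldehyde dehydrogenase oxidises acetaldehyde to acetate. Pdc1 is the main decarboxylase of cells on glucose, and Pdc5 is a close copy that is known for its induction when Pdc1 is lost or thiamine is scarce. Adh1 is the main fermentative alcohol dehydrogenase, and ADH2, which encodes the ethanol-oxidising form, is repressed by glucose. Ald4 is a mitochondrial enzyme that potassium ions activate, and Ald6 is the cytosolic, NADP+-dependent form.

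The strains were BY4741 (MATa his3Δ1 leu2Δ0 met15Δ0 ura3Δ0) carrying bmh1Δ::loxP or bmh2Δ::loxP. BMH1 and BMH2 encode the 14-3-3 proteins of yeast, phosphoprotein-binding regulators, so each strain lacked 1 of the pair. Cells were grown in Translucent YNB, a medium made to hold very little potassium, with 50 mM KCl added. They were then washed and moved for 60 min to Translucent YNB with 50 mM or 0 mM KCl. All cultures received leucine, histidine, methionine and uracil. RNA levels were measured by SAGE-tag sequencing in 3 libraries for each of the 4 groups. BY4741 itself was not analysed here, so every comparison is between KCl concentrations or between the mutants. Each strain is 1 deletion strain.

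The values are RPM, reads scaled to a library total of 1000000, and the depth they imply ran from 6237952 tags in the bmh1∆ library B50 to 107579363 in B0. By the form of their names the bmh1∆ libraries fall in 2 sets, called sequencing runs here although no label names a run. B50 and B0 carry a letter as all bmh2∆ libraries do (C, D and E), and the other 4 carry a lane 1 index. Among the lettered libraries lane went partly with KCl. C50, D50, E50 and C0 were in lane 5, D0, E0 and B0 in lane 6 and B50 in lane 7. No fit had these lanes as a term, so starvation and lane are not fully told apart. For 24.1% of the 5278 tested genes, B50 and the mean of the lane 1 libraries at 50 mM KCl were over 4-fold apart. Tags of B0 were at or above the sum of the 7 other lettered libraries (80555864 tags) in all 6053 genes. Tags of the lane 1 library GTCACG were at or above the sum of the 3 other lane 1 libraries (44965676 tags) in all genes but 1. Both are bmh1∆ libraries at 0 mM KCl, and leaving them out or taking those sums away moved values. The moved values are given for most bmh1∆ starvation responses and for strain differences at 0 mM KCl. Differences of the response between the strains are given with both libraries as deposited. BMH2 was at 197 to 505 RPM in bmh1∆ and at most 0.291 RPM in bmh2∆; its lowest bmh1∆ value was that of B0, which became 668 RPM with the sum taken away. BMH1 was at 536 to 4170 RPM in bmh1∆, but the study places these tags beyond the reading frame, so they do not check the deletion. The a-cell genes MFA1 and STE2 were at 1779 to 13718 and 486 to 1772 RPM, against at most 3.50 RPM for the alpha-factor genes. Other markers were less far apart, with the a-cell genes MFA2 at 7.21 to 122 and BAR1 at 19.7 to 361 RPM. The alpha-cell gene STE3 reached 6.09 RPM. Of the marker genes in the genotype, URA3 reached 0.328 RPM, and HIS3 was at 2.21 to 25.2 RPM. MFA1 rose on starvation in bmh1∆ (log2 fold change 1.49, limma adjusted p = 0.047) and in bmh2∆ (1.54, adjusted p = 0.017), and so did STE2 in bmh2∆ (1.22, adjusted p = 0.032). The bmh1∆ rise of MFA1 did not pass without B0 and GTCACG (1.11, adjusted p = 0.22) and passed after their sums were taken away (1.69, adjusted p = 0.036).

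In this method NlaIII cuts each cDNA at CATG, and 17 further bases downstream of the site nearest the poly(A) tail are read. A transcript thus gives 1 tag whatever its length, and levels of different genes can be set side by side in RPM, provided that each has a tag of its own. The tags expected at the last CATG site of each coding sequence in the reference genome (R64, from RefSeq) are shown here because isoenzymes with the same tag cannot be told apart by it. Capitals mark the NlaIII site.
PDC1: CATGttgccagtcttcgatgc
PDC5: CATGccgaatataatgaaatt
PDC6: CATGggcctcacgcagagtac
ADH1: CATGggtgaaaacgttaaggg
ADH2: CATGggtgaaaacgttaaggg
ADH3: CATGtggtgaagtccatcaat
ADH4: CATGatgcctgccatttgact
ADH5: CATGcttactgcaattccgat
ALD4: CATGgcgaacgattctgaata
ALD6: CATGcatacactgaagtaaaa
The sites lie in the exons at chrXII:232448-232468 (- strand, PDC1), chrXII:412172-412192 (+, PDC5), chrVII:651521-651541 (-, PDC6), chrXV:160350-160370 (-, ADH1), chrXIII:874093-874113 (-, ADH2), chrXIII:435718-435738 (+, ADH3), chrVII:16224-16244 (+, ADH4), chrII:534590-534610 (+, ADH5), chrXV:1041159-1041179 (+, ALD4) and chrXVI:434049-434069 (+, ALD6). ADH1 and ADH2 have the same tag, 823 bases before the end of the stop codon in both genes. PDC1 and PDC5 are 87.2% identical over coding sequences of 1692 bases, yet these tags of theirs differ at 13 of 21 positions. The tags of PDC6 differ at 14 positions from those of both. A CATG site also follows the stop codon in PDC5 (at 18 bases), ALD4 (75), PDC1 (94), PDC6 (148) and ALD6 (167), so where the transcript reaches it the tag counted is another than the one shown.

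**Figure D1:**
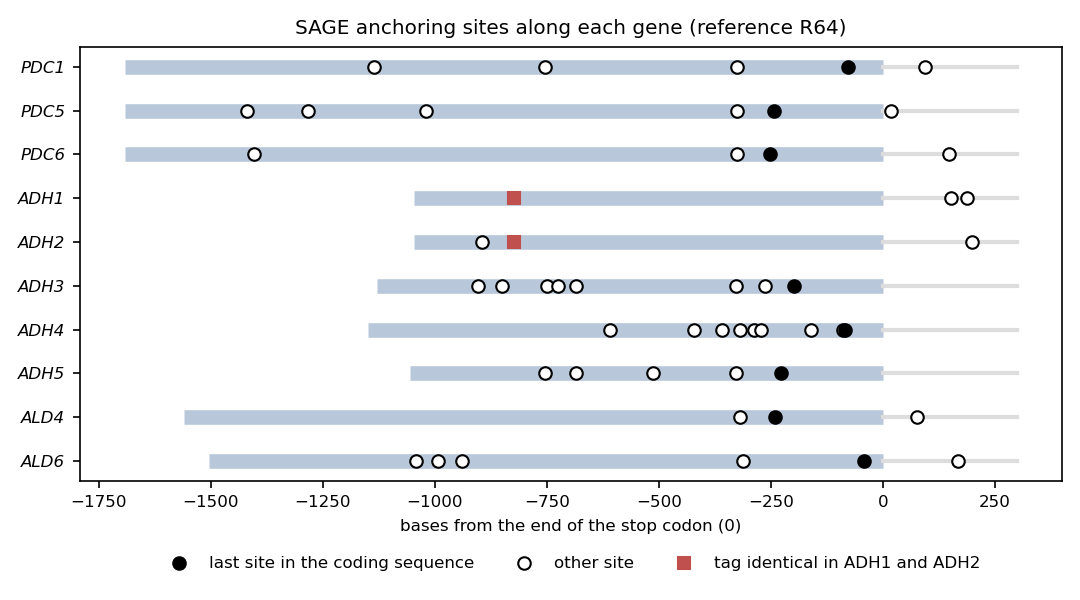
CATG sites along the 10 genes, in bases from the end of the stop codon (0); wide bars are coding sequences, thin lines the 300 bases after them, filled circles the last coding site and open circles other sites. The red squares mark the tag that ADH1 and ADH2 share, 823 bases before the end of the stop codon; it is the only site in the coding sequence of ADH1.

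The ADH1 row was nearly empty although Adh1 is an abundant enzyme. It held at most 0.672 RPM in any library and 0 in 5 of the 12, among them all 3 bmh2∆ libraries at 0 mM KCl. There a count of 0 allows up to 0.218 to 0.232 RPM (3 tags) if it means that no tag was read. No deposited value was as low as 1 tag, so 1 tag may stand as 0 and the limit may be higher. The ADH2 row held 1742 to 9246 RPM, and the mean of bmh1∆ at 50 mM KCl placed it at rank 15 of all genes. The shared tag, CATGggtgaaaacgttaaggg, occurs at 2 places in the genome, and the coding sequences of ADH1 and ADH2 are 88.8% identical. Further CATG sites follow the stop codon at 153 and 188 bases in ADH1 and at 198 bases in ADH2. Where a transcript ends before those sites, ADH1 and ADH2 cannot be told apart in this table, so the ADH2 row is called ADH2 (shared tag) from here on. Of 6002 coding genes in the reference, 251 (4.18%) share their last coding tag with another gene, and 585 have no site.

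**Figure D2:**
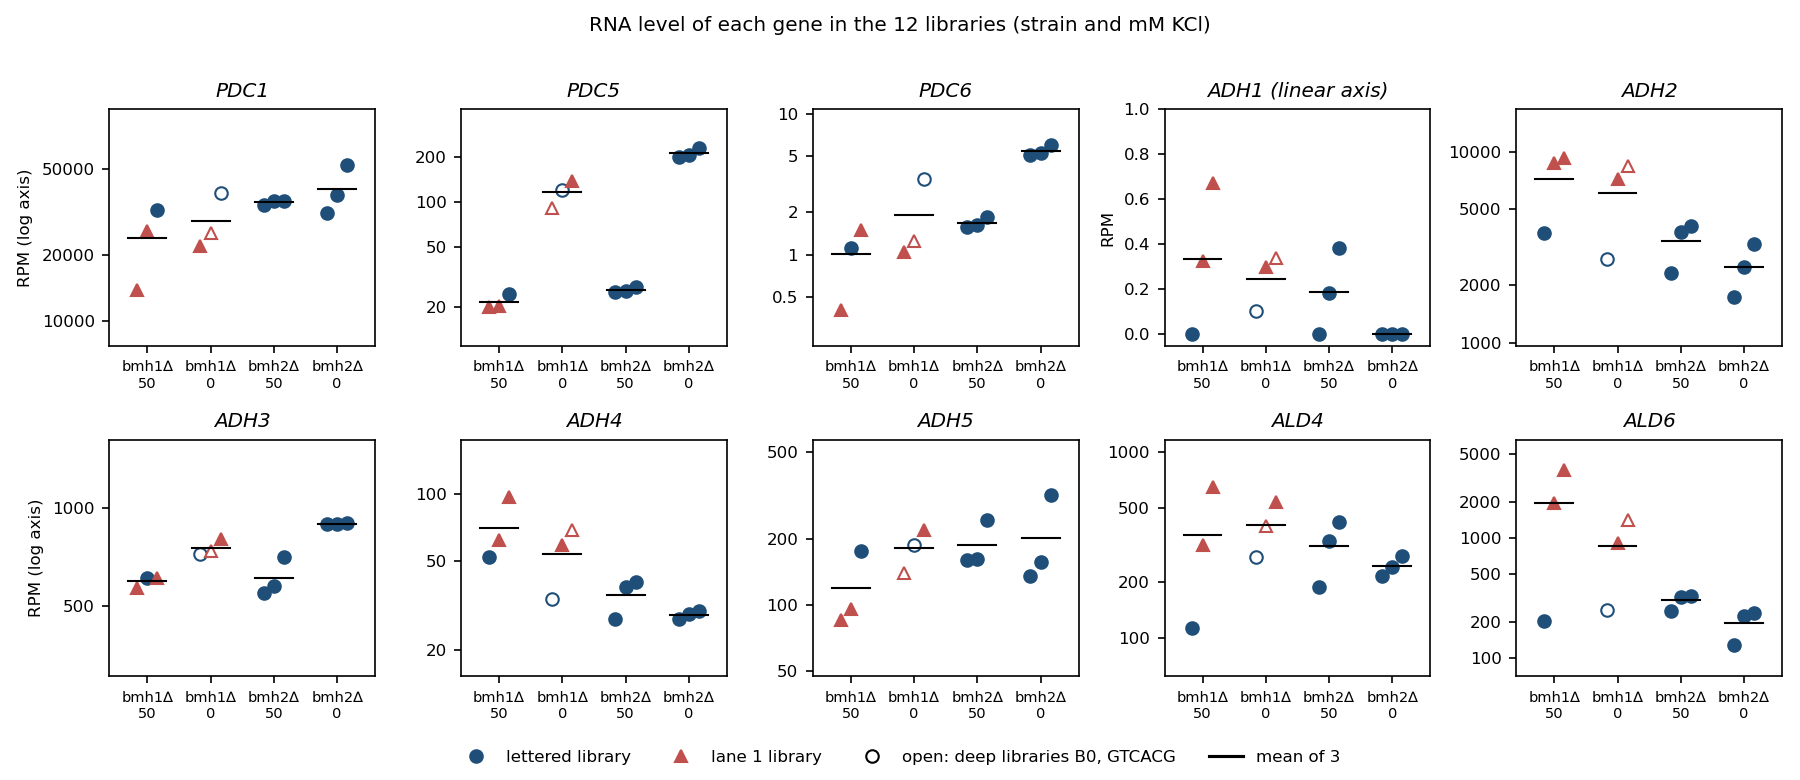
RNA level of each gene in RPM in the 12 libraries (log axes, ADH1 on a linear axis), by strain and mM KCl; each symbol is 1 library, circles are lettered and triangles lane 1 libraries, open symbols are B0 and GTCACG, and lines are means of 3. PDC5 is at 19.8 to 27.2 RPM in all libraries at 50 mM KCl and at 92.1 to 232 RPM in all libraries at 0 mM KCl, while ALD6 is high in lane 1 libraries.

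The 10 genes together took 2.76% to 5.55% of the tags of a library. In bmh2∆ at 50 mM KCl, where replicates were closest, the mean level fell in the order PDC1, ADH2 (shared tag), ADH3, ALD4, ALD6, ADH5, ADH4, PDC5, PDC6 and ADH1. The means ran from 34966 ± 938 RPM for PDC1 to 0.190 ± 0.193 RPM for ADH1 (SD, n = 3). The neighbours ALD4 (314 ± 117 RPM) and ALD6 (301 ± 46.1 RPM) did not differ beyond their spread.

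PDC5 rose on starvation in both strains. In bmh1∆ its level was 19.8, 20.2 and 24.4 RPM at 50 mM KCl and 92.1, 120.0 and 139.5 RPM at 0 mM KCl. In bmh2∆ it was 25.1, 25.6 and 27.2 RPM at 50 mM and 202, 205 and 232 RPM at 0 mM KCl. Every starved library thus lay above every library with KCl. Libraries of the 2 groups did not overlap for 12.6% of all genes in bmh1∆ and for 40.6% in bmh2∆. The means went from 21.5 ± 2.52 to 117 ± 23.8 RPM in bmh1∆ and from 26.0 ± 1.14 to 213 ± 16.2 RPM in bmh2∆ (SD, n = 3), which moved the gene from rank 3290 to rank 642 of the table in bmh2∆. On the log2(RPM + 1) scale the change was 2.38 (SE 0.24, 5.21-fold, limma adjusted p = 0.0011) in bmh1∆ and 2.99 (SE 0.24, 7.93-fold, adjusted p = 0.00011) in bmh2∆. Of the 9 genes of the set that were tested, PDC5 alone passed in either strain, where 0.966% of all 5278 genes tested passed in bmh1∆ and 5.53% in bmh2∆.

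The bmh1∆ rise of PDC5 remained without B0 and GTCACG (log2 fold change 2.65, adjusted p = 0.0066) and after their sums were taken away (2.61, adjusted p = 0.00036). A fit of the 6 bmh1∆ libraries by themselves ended the call (adjusted p = 0.14), and 2 genes of the whole table passed in that fit. With B0 and GTCACG as deposited, the response was 0.61 larger in bmh2∆ on the log2 scale (95% interval -0.15 to 1.36, adjusted p = 0.99). At 0 mM KCl the bmh2∆ libraries lay above those of bmh1∆ by 0.87 on the log2 scale, with limma adjusted p = 0.40 and unadjusted p = 0.00416. A difference in the size of the rise between the strains was thus not shown.

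PDC1, the main decarboxylase gene, was among the most abundant RNAs of every group, at rank 1 or 2 by group mean. Its level in bmh1∆ was 13830, 25969 and 32193 RPM at 50 mM KCl and 22104, 25281 and 38711 RPM at 0 mM KCl. In bmh2∆ it was 33900, 35333 and 35666 RPM at 50 mM and 31327, 37859 and 51955 RPM at 0 mM KCl. The groups overlapped in each strain, and the log2 fold changes were 0.30 (95% interval -0.48 to 1.09, adjusted p = 0.84) and 0.18 (-0.61 to 0.96, adjusted p = 0.88). Without B0 and GTCACG the bmh1∆ value was -0.033, and after their sums were taken away it was 0.43.

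PDC6 encodes a minor decarboxylase and was the rarest of the 3. In bmh1∆ it was at 0.410, 1.12 and 1.50 RPM at 50 mM KCl and at 1.04, 1.26 and 3.42 RPM at 0 mM KCl, the highest value being that of B0. In bmh2∆ it was at 1.57, 1.64 and 1.87 RPM at 50 mM and at 5.07, 5.27 and 5.96 RPM at 0 mM KCl. The bmh2∆ groups did not overlap, as was so for 40.6% of all genes. The log2 difference was 1.26 (SE 0.34, adjusted p = 0.058), and the adjusted p ran from 0.0037 to 0.21 over 26 alternatives that give one. Of these 12 passed, among them the main fit itself read at a looser threshold, an adjusted p under 0.1. PDC6 met the minimum of 3 RPM in 3 libraries through 4 libraries at 0 mM KCl, so it could be tested only because it was higher there. In bmh1∆ the difference was 0.48 (95% interval -0.27 to 1.24, adjusted p = 0.69), and it was 0.062 without B0 and GTCACG.

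Despite its rise, PDC5 remained a small part of the PDC tags. PDC1 made up 99.4% to 99.9% of the summed tags of PDC1, PDC5 and PDC6 in each group. The share of PDC5 went from 0.0988% ± 0.0385 to 0.433% ± 0.170 in bmh1∆ and from 0.0742% ± 0.00352 to 0.542% ± 0.104 in bmh2∆ (SD, n = 3). The libraries did not overlap in either strain. An exact two-sided permutation test gave p = 0.1 in both strains, the smallest value that 3 against 3 libraries allow, and 0.4 adjusted over the 40 shares tested. The bmh1∆ difference of 0.334 percentage points became 0.528 without B0 and GTCACG and 0.365 after their sums were taken away. The share of PDC6 in bmh2∆ was 0.00483% at 50 mM and 0.0140% at 0 mM KCl (exact permutation p = 0.1, adjusted 0.4). The site 325 bases before the end of the stop codon is common to the 3 genes, and tags there differ by as few as 2 bases between PDC1 and PDC5 or PDC6. Whether tags with mismatches were assigned to genes is not given in the sources read.

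**Figure D3:**
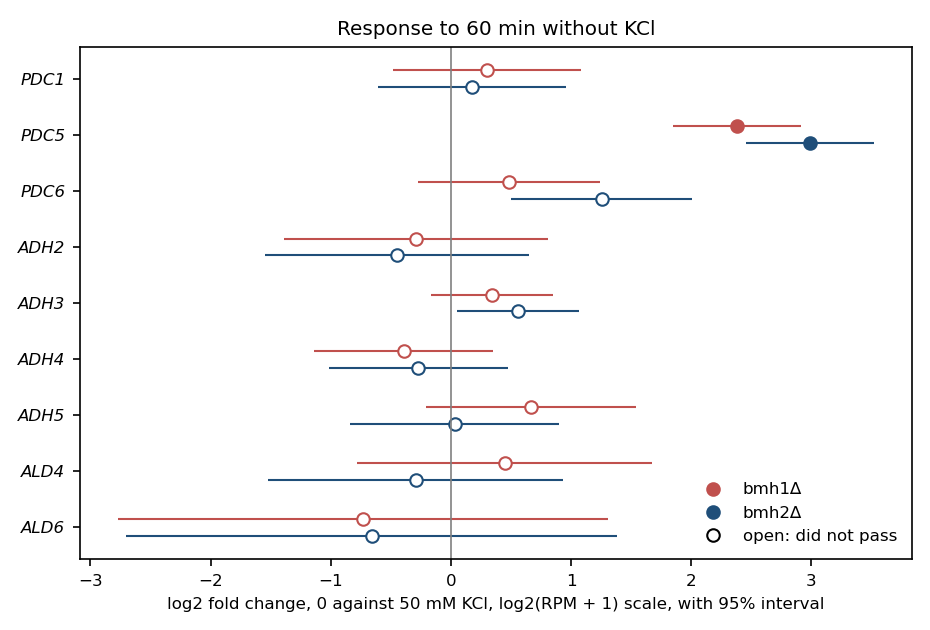
Change in level between 0 and 50 mM KCl for the 9 tested genes, as log2 fold change on the log2(RPM + 1) scale with 95% intervals, in bmh1∆ (red) and bmh2∆ (blue); filled circles passed the test. PDC5 stands at 2.38 and 2.99, and the open circles of the other genes lie between -0.73 and 1.26.

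ADH2 (shared tag) showed no change that passed. In bmh1∆ it was at 3748, 8699.8 and 9246 RPM at 50 mM KCl and at 2734, 7158 and 8459.9 RPM at 0 mM KCl, the lettered library being the lowest in each group. In bmh2∆ it was at 2324, 3799 and 4107 RPM at 50 mM and at 1742, 2494 and 3274 RPM at 0 mM KCl. The log2 differences were -0.29 (95% interval -1.39 to 0.81, adjusted p = 0.91) in bmh1∆ and -0.45 (-1.55 to 0.65, adjusted p = 0.73) in bmh2∆, with overlapping libraries. The bmh1∆ value was 0.094 without B0 and GTCACG and -0.42 after their sums were taken away. It made up 68.1% to 88.7% of the summed tags of ADH1 to ADH5 by group mean.

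ADH3 encodes the mitochondrial alcohol dehydrogenase and had the least spread between replicates of the 10 genes by coefficient of variation in bmh1∆ at both KCl concentrations. At 0 mM KCl this did not hold with the sums taken away from B0 and GTCACG. ADH3 was then at 763 ± 122 RPM and PDC5 at 136 ± 12.5 RPM (SD, n = 3). As deposited, ADH3 in bmh1∆ was at 568, 609 and 609 RPM at 50 mM KCl and at 723, 738 and 801 RPM at 0 mM KCl. In bmh2∆ it was at 549, 575 and 707 RPM at 50 mM and at 890.4, 892 and 900.3 RPM at 0 mM KCl. Each starved library lay above each library with KCl in both strains. Over all genes, libraries of the 2 groups did not overlap in either direction for 12.6% in bmh1∆ and 40.6% in bmh2∆. The log2 difference was 0.34 (SE 0.23, adjusted p = 0.67) in bmh1∆ and 0.56 (SE 0.23, adjusted p = 0.21) in bmh2∆, so neither passed. With its sum taken away, B0 held 627 RPM in place of 723 RPM, still above the 3 libraries at 50 mM KCl. The bmh1∆ difference was 0.43 without B0 and GTCACG and 0.35 with both sums taken away.

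ADH4, whose product differs in sequence from the other alcohol dehydrogenases and which is known for its induction at low zinc, was at 27.5 to 97.3 RPM. In bmh1∆ the libraries held 52.4, 62.4 and 97.3 RPM at 50 mM KCl and 33.8, 59.2 and 69.3 RPM at 0 mM KCl. In bmh2∆ they held 27.5, 38.2 and 40.5 RPM and 27.5, 29.0 and 29.9 RPM. The change on starvation was -0.39 (95% interval -1.14 to 0.35, adjusted p = 0.75) in bmh1∆ and -0.27 (-1.01 to 0.47, adjusted p = 0.77) in bmh2∆ on the log2 scale. In bmh1∆ it was -0.20 without B0 and GTCACG and -0.47 after their sums were taken away. ADH5, which encodes a minor alcohol dehydrogenase, was at 85.0 to 317 RPM. Its means were 119 ± 49.4 and 183 ± 40.4 RPM in bmh1∆ and 189 ± 47.4 and 203 ± 98.9 RPM in bmh2∆, at 50 and 0 mM KCl (SD, n = 3). Its groups overlapped, with log2 differences of 0.67 (95% interval -0.20 to 1.54, adjusted p = 0.61) and 0.03 (-0.84 to 0.90, adjusted p = 0.99). The bmh1∆ difference was 0.96 without B0 and GTCACG and 0.65 after their sums were taken away.

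ALD4 and ALD6 varied widely between libraries of bmh1∆, with coefficients of variation of 75.3% and 89.0% at 50 mM KCl. ALD4 was at 113, 316 and 648 RPM at 50 mM and at 274, 400.2 and 539 RPM at 0 mM KCl in bmh1∆. In bmh2∆ it was at 188, 334 and 419 RPM at 50 mM and at 216, 240.3 and 276 RPM at 0 mM KCl. The groups overlapped, and the log2 differences were 0.45 (95% interval -0.78 to 1.68, adjusted p = 0.84) and -0.29 (-1.52 to 0.94, adjusted p = 0.87). In bmh1∆ the difference was 0.92 without B0 and GTCACG (adjusted p = 0.62) and 0.35 after their sums were taken away (adjusted p = 0.85).

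ALD6 was at 1962 and 3666 RPM in the lane 1 libraries of bmh1∆ at 50 mM KCl and at 204 RPM in B50. At 0 mM KCl it was at 913 and 1413 RPM in the lane 1 libraries and at 249 RPM in B0. The bmh2∆ libraries held 248, 324 and 331 RPM at 50 mM and 127, 225 and 235 RPM at 0 mM KCl. The level was thus high in lane 1 libraries, by 13.8-fold over B50 and 4.67-fold over B0, and it was 127 to 331 RPM in the lettered libraries. With the sum of the other lane 1 libraries taken away, GTCACG held 321 RPM in place of 1413 RPM, and with both sums taken away the 4.67-fold became 2.29-fold. The log2 difference on starvation was -0.73 (95% interval -2.77 to 1.31, adjusted p = 0.85) in bmh1∆, -0.32 (adjusted p = 0.92) without B0 and GTCACG and -1.40 (adjusted p = 0.54) after their sums were taken away. In bmh2∆ the starved libraries lay below the others, at -0.66 (-2.70 to 1.38, adjusted p = 0.81). Libraries of the 2 groups did not overlap for 40.6% of all genes in bmh2∆. The interval rests on 1 spread shared by the 4 groups. For ALD6 the SD of log2(RPM + 1) was 2.19 (50 mM) and 1.30 (0 mM KCl) in bmh1∆. In bmh2∆ it was 0.23 and 0.49. ALD6 made up 78.5% ± 12.3 of the summed ALD4 and ALD6 tags in bmh1∆ and 50.0% ± 11.9 in bmh2∆ at 50 mM KCl (SD, n = 3; exact permutation p = 0.1, adjusted 0.4 over 40 tests).

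The starvation response was then compared between the strains for each gene. None of the 9 tested genes differed, with log2 differences of the response between -0.74 for ALD4 and 0.77 for PDC6 and adjusted p of 0.99 or 1. Over all genes 0 of 5278 (0%) passed this limma test, and 169 (3.2%) had an unadjusted p under 0.05, none of them among the 9.

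Levels were also compared directly between bmh2∆ and bmh1∆. Over all genes 0.0568% passed at 50 mM and 0.0189% at 0 mM KCl, and libraries of the strains did not overlap for 20% and 18.3% of genes. Of the 9 genes tested none passed at either concentration, while 1 had an unadjusted p under 0.05 at 50 mM and 4 at 0 mM KCl. Over all genes 16.6% and 11.5% had one. PDC6 was among the 4 at 0 mM KCl. It met the minimum of 3 RPM only through the bmh2∆ libraries at 0 mM KCl (5.07 to 5.96 RPM) and B0 (3.42 RPM). PDC6 could thus be tested only because it was high in bmh2∆ at 0 mM KCl. Its strain difference there is not independent of the filter. At 50 mM KCl the bmh2∆ libraries lay below those of bmh1∆ for ADH4 and above them for the 3 PDC genes. At 0 mM KCl they lay below for ADH4 and ALD6 and above for PDC5, PDC6 and ADH3. ALD6 had the widest difference, -1.93 on the log2 scale at 50 mM (adjusted p = 0.32) and -1.85 at 0 mM KCl (adjusted p = 0.40). For ADH2 (shared tag) it was -1.02 (adjusted p = 0.33) and -1.18 (adjusted p = 0.40), and for ADH4 -0.95 (adjusted p = 0.22) and -0.83 (adjusted p = 0.40). At 0 mM KCl, leaving out B0 and GTCACG gave -2.27 for ALD6, -1.56 for ADH2 (shared tag), -1.01 for ADH4, -1.15 for ALD4, 0.60 for PDC5 and 1.65 for PDC6. Taking their sums away gave -1.18, -1.04, -0.74, -0.58, 0.65 and 1.21 for the same genes, and none passed in limma either way.

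No bmh2∆ library was read in lane 1, so strain and run are told apart through B50 and B0 only. With the run as a term the differences became 0.04 and 0.11 for ALD6, -0.10 and -0.26 for ADH2 (shared tag) and -0.46 and -0.34 for ADH4. ALD4 went from 0.06 and -0.68 to 0.98 and 0.24, and ADH5 at 0 mM KCl from 0.07 to -0.28. For PDC5 at 0 mM KCl the difference was 0.76 with the run as a term against 0.87 without it. Without B50, which leaves lane 1 libraries alone for bmh1∆ at 50 mM KCl, 1340 genes passed, among them ADH2 (shared tag) (-1.44, adjusted p = 0.046), ADH4 (-1.14, adjusted p = 0.036) and ALD6 (-3.16, adjusted p = 0.016). With the run as a term and the sums taken away from B0 and GTCACG, the differences at 0 mM KCl were 0.39 for ALD6, 0.00082 for ADH2 (shared tag), -0.31 for ADH4 and 0.63 for PDC5.

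**Figure D4:**
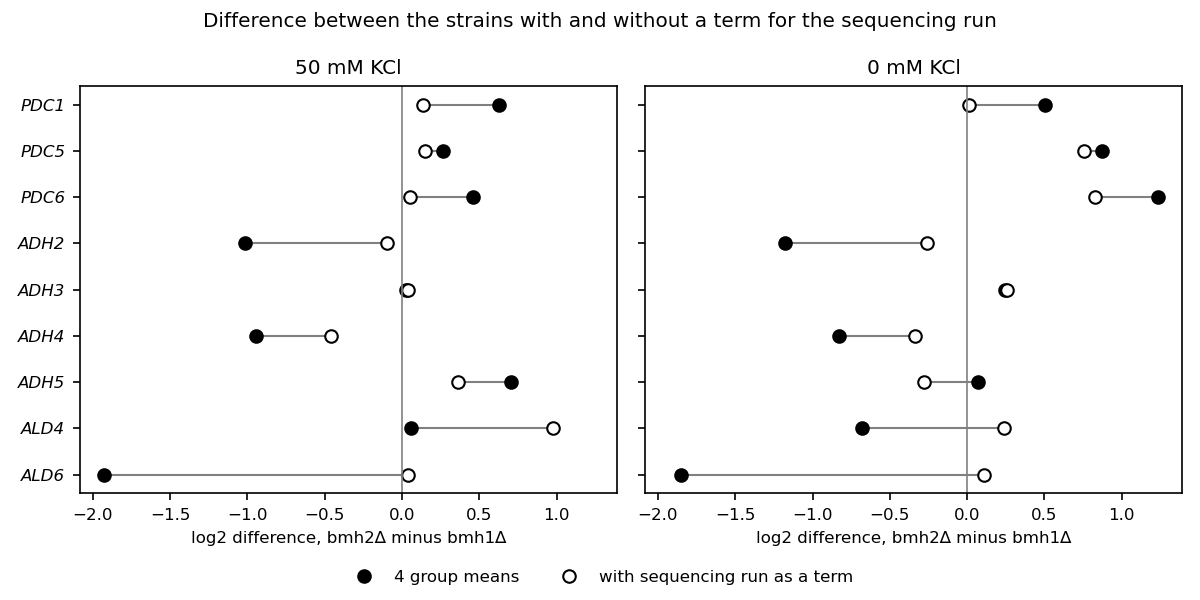
Log2 difference in level, bmh2∆ minus bmh1∆, for the 9 tested genes at 50 mM (left) and 0 mM KCl (right), from 4 group means (filled) and with the sequencing run as a term (open). ALD6 moves from -1.93 to 0.04 and from -1.85 to 0.11, whereas PDC5 at 0 mM KCl stays at 0.87 and 0.76.

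Genes around these enzymes were followed in 6 lists. Among 12 tested genes of other fates of pyruvate and acetyl-CoA, ACH1, which encodes a mitochondrial CoA transferase that acts on acetyl-CoA and acetate, rose in both strains and was the only one that passed. Its level went from 18.4, 22.9 and 31.3 RPM to 96.9, 125 and 193 RPM in bmh1∆. In bmh2∆ it went from 31.1, 34.7 and 50.7 RPM to 219.7, 224 and 239 RPM. The groups did not overlap, as was so for 12.6% of all genes in bmh1∆ and 40.6% in bmh2∆. The log2 fold changes were 2.44 (SE 0.32, limma adjusted p = 0.005) and 2.55 (SE 0.32, adjusted p = 0.0023). The bmh1∆ value was 2.98 (adjusted p = 0.012) without B0 and GTCACG and 2.51 (adjusted p = 0.0035) after their sums were taken away. These are close in size to those of PDC5, which share the same libraries.

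Of 13 tested regulators, RAP1, which encodes a transcription factor of glycolytic and ribosomal protein genes, was the only one that passed, and it fell in bmh2∆. Its level was 66.2, 78.6 and 81.5 RPM at 50 mM KCl and at most 14.3 RPM at 0 mM KCl (mean 13.1 ± 1.81, SD, n = 3), a change of -2.44 on the log2 scale (SE 0.43, limma adjusted p = 0.013). In bmh1∆ its libraries overlapped, with a difference of -0.77 (SE 0.43, adjusted p = 0.57), which was -1.71 (adjusted p = 0.14) without B0 and GTCACG and -0.997 (adjusted p = 0.31) after their sums were taken away.

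None of the other 4 lists had a gene that passed in any comparison by limma. These were 7 other alcohol and aldehyde dehydrogenase genes, 11 targets of Adr1 and Cat8, the activators of ethanol and acetate use, 11 zinc genes of Zap1 and 14 thiamine genes. On starvation in bmh1∆ and in bmh2∆ 2 of the 7 other dehydrogenases had an unadjusted p under 0.05, and so had 3 and 6 of the Adr1 and Cat8 targets, 0 of the zinc genes in both strains, and 0 and 2 of the thiamine genes. Over all genes 11.7% and 19.2% had one. The median log2 difference on starvation was 0.71 and 0.66 for the other dehydrogenases, 0.25 and -0.23 for the Adr1 and Cat8 targets, 0.13 and -0.32 for the zinc genes and 0.27 and 0.20 for the thiamine genes, in bmh1∆ and bmh2∆. Over all tested genes it was 0.14 and 0.05.

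The genes most like a member over the 12 libraries were found by Pearson's r of log2(RPM + 1), as a description of libraries that share runs and media. For PDC1 they were YLR346C (r = 0.97), GPR1 (0.97) and NSE3 (0.96), and for ADH2 (shared tag) DON1 (0.97), SNF11 (0.96) and UPS3 (0.96). For ALD4 they were CRS5, CHS5 and YNR014W (0.94 each). For PDC5, chosen after its values were seen, they were SPL2, which encodes a regulator of phosphate transport, with r = 0.99, and YHL042W and NQM1 (0.99 each). ADH1 did not pass the filter and has none.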

How the data were processed

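The authors sequenced SAGE tags of 12 libraries, matched them to genes and deposited a table of RPM per gene (tags of a gene scaled to a total of 1000000). For tag sequencing the study refers to an earlier report that was not used here, and aligner, build and mismatches are not given in the sources read. In each library the deposited RPM were whole multiples of a step, and the depth was taken as 1000000 divided by it. No value was at 1 step (the smallest is 2), and no count test was run. Intervals cover the spread between libraries, which the main fit estimated once per gene over the 4 groups. The median SD of log2(RPM + 1) over tested genes was 0.74 (50 mM) and 0.51 (0 mM KCl) in bmh1∆. In bmh2∆ it was 0.24 and 0.32. Intervals and limma p-values for bmh2∆ thus also hold the wider spread of bmh1∆.

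Tests used limma 3.58.1 (R 4.3.3) on log2(RPM + 1), with trend and robust settings, 4 group means and Benjamini-Hochberg adjustment over the 5278 genes that reached 3 RPM in 3 or more libraries. Adjusted p under 0.05 passed. Fold changes on this scale understate changes of low genes. Shares were compared by exact permutation (SciPy 1.17.1). Nothing says that replicates came from separate cultures, so p-values measure the spread between libraries. The genes, lists and tests were chosen with earlier results of these data known. Named were the 10 genes, BMH1 and BMH2, mating-type and marker genes of the strain and up to 4 passing genes of a list. The 3 genes most like PDC1, ADH1, ADH2 and ALD4 were named too. Alternatives changed the pseudocount, filter, scaling, variance model, samples, test, threshold, run term, block and libraries, and taking sums from B0 and GTCACG, alone and with the run term, was added after seeing the data. Sequences are from RefSeq (R64).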

Additional observations from a re-analysis of the deposited data

How the results depend on the processing

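PDC5 passed under 28 of 28 alternatives in bmh2∆ and 27 of 28 in bmh1∆, the exception being the fit of the 6 bmh1∆ libraries alone (0 of the genes passed there). In bmh2∆ the number of the 9 genes that passed became 2, with PDC6 beside PDC5, under a pseudocount of 5, no filter, only the groups compared, Student's test, an adjusted p under 0.1, the run as a term (with or without the sums taken away), the replicate block, without B0 and GTCACG, and with the lettered libraries alone. Leaving out each library in turn gave 1 to 2 in bmh2∆ (2 without B50, B0 or TGCACT), 1 in bmh1∆ and 0 to 3 between the strains at 50 mM KCl (3 without B50).

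Of 1061 member values under alternatives, 1009 kept direction and call, and 35 changed direction, none of which had passed. Differences of the response between the strains were counted there for PDC5, PDC6 and ALD4 only. Among those not counted, ADH2 (-0.66 to 0.26), ADH4 (-0.18 to 0.33), ALD6 (-0.77 to 1.31) and PDC1 (-0.38 to 0.23) changed direction as libraries were left out in turn. Quantile normalization turned PDC1 to -0.016 on starvation in bmh2∆ and to -0.12 and -0.26 between the strains. The run as a term turned ALD6 to 0.040 and 0.11, and at 0 mM KCl ADH5 to -0.28 and ALD4 to 0.24, between the strains. With the sums also taken away, it turned ADH2 to 0.026 and 0.00082, and at 0 mM KCl ALD6 to 0.39, ADH5 to -0.18, ALD4 to 0.18 and PDC1 to -0.12. Student's test gave ALD4 -0.19 between the strains at 50 mM KCl. Without B0 and GTCACG, starvation in bmh1∆ gave 0.094 for ADH2 and -0.033 for PDC1, and the strains at 0 mM KCl -0.22 for ADH5. The lettered libraries alone gave ALD6 0.29 on starvation in bmh1∆ and 0.55 between the strains at 50 mM KCl, where ADH3 was at -0.0055. Leaving out each library in turn gave ranges in bmh1∆ of -0.21 to 1.04 for ALD4, -1.97 to 0.11 for ALD6, -0.053 to 0.56 for PDC1 and -0.71 to 0.21 for ADH2. In bmh2∆ they were -0.34 to 0.27 for ADH5 and -0.022 to 0.34 for PDC1. Between the strains they were -0.083 to 0.099 for ADH3 and -0.60 to 0.65 for ALD4 at 50 mM KCl and -0.30 to 0.31 for ADH5 at 0 mM KCl. The cause was not tested.

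Libraries of the same letter deviated from their group means with r = 0.07 (C), 0.25 (D) and -0.29 (E) in bmh2∆. In bmh1∆ r was 0.88 (B), where B50 and B0 were each the only lettered library of their group. The B value thus also holds the difference between lettered and lane 1 libraries. Not every pair was above 0.1, and the letters, which no label explains, were not taken as pairs. The paper's methods describe a shared overnight culture for the arms with and without KCl. In the library names, those of the same letter have adjacent tube numbers. The arms may thus be paired by letter, and the main fit did not use such pairs. A replicate block by letter moved the genes passing in all from 51 to 311 in bmh1∆ and from 292 to 946 in bmh2∆, and PDC6 in bmh2∆ to adjusted p = 0.017. Over all genes the run as a term gave 460 and 1062, and only the groups compared 2 and 1254. In bmh2∆, where 292 passed, Student's test gave 509, the adjusted p under 0.1 gave 498 and the lettered libraries alone 1243. Among the tested genes of the set PDC6 had the fewest tags, with 5 to 29 tags in bmh1∆ libraries at 50 mM KCl.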
